A study of Mus musculus with 4 samples.

Results

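The genes described here display peptides from inside the cell on MHC class I molecules. They are the classical heavy chains H2-K1 and H2-D1, their shared light chain B2m (beta-2 microglobulin), the peptide transporter subunits Tap1 and Tap2, the loading factor Tapbp (tapasin), the inducible proteasome subunits Psmb8, Psmb9 and Psmb10, and the transactivator Nlrc5. They were taken by symbol from the gene names of the deposited matrices, and all 10 were found among 31053 genes. Their values were summed per library and within cells gated by a pair of marker transcripts.

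The cells were non-parenchymal liver cells of Col1a2-CreERT2; tdTomato reporter mice, in which an inducible recombinase under collagen gene control switches on a red fluorescent protein. The genotype labels give the reporter allele as R27RtdTomato for the positive recovery group, R28RtdTomato for the negative injury group and R29RtdTomato for the negative recovery group, where the series text gives R26RtdTomato. Steatohepatitis was induced in every group by 8 weeks of a diet lacking methionine and choline, with 45% fat and 0.1% L-methionine in the water, and cells came from injured mice or from mice in recovery. Injury without recovery is thus compared with recovery after the same diet, with no undamaged liver. There was 1 library for each group, named by reporter fraction and stage, and the positive injury library was not analysed here. The sources used here do not give the strain, age and number of animals, the length of recovery or the sorting method.

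Cytosolic proteins are cut by proteasomes, and the peptides are pumped into the endoplasmic reticulum by the TAP transporter, where tapasin helps to fit them into a heavy chain paired with B2m. The loaded complex travels to the cell surface, where CD8 T cells inspect it. Interferons raise this whole route: they act through dedicated transcription factors, induce the immunoproteasome subunits that replace constitutive ones, and induce Nlrc5, which acts at class I promoters. In the liver, sinusoidal endothelium, bile duct cells, stellate cells and mesothelium can all carry class I and can meet T cells.

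Each group is 1 library, so differences cannot be set against a spread between replicates, and no test was run. A level is given in CPM, the UMIs of a gene (unique molecular identifiers, single captured transcripts) per 1000000 UMIs of the same cells. Each 95% interval, exact Poisson for a level and exact binomial for a fold or a share, covers counting error only. The libraries held 2380 cells with a median of 11232 UMIs (positive recovery), 2949 cells with 8670 (negative recovery) and 5443 cells with 6849 (negative injury), and any 2 of these libraries shared 3 to 8 barcodes. Gated cells carried at least 1 UMI of both markers: Upk3b and Nkain4 (mesothelial, 1324, 81 and 288 cells in that order of libraries), Epcam and Spp1 (bile duct, 26, 421 and 1120), Clec4g and Stab2 (sinusoidal endothelium, 180, 2142 and 3278), Vwf and Ly6c1 (vascular endothelium, 1, 32 and 82), and Lrat and Reln (stellate, 177, 6 and 41).

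The gates carried the marker lists of their names, 10 genes each, none at 0: in the negative libraries the mesothelial list summed to 8760 and 6716 CPM in recovery and injury, the duct list to 27424 and 27994, the sinusoidal list to 17506 and 14753, and the vascular list to 11748 and 11989. RNA of other cells was present. The hepatocyte list of 7 genes, with none at 0, summed to 7122 CPM in duct cells of recovery and 10970 at injury, against 33.19 to 254.5 CPM in the other gates of these libraries with at least 30 cells. Sinusoidal markers summed to 2733 and 3837 CPM in the vascular gate. The leukocyte list of 13 genes summed to 906.2 and 877.1 CPM in mesothelial cells, of which Cd74 made up 904.2 and 872.9, and to 190.9 and 324.5 CPM in duct cells, with 9, 4, 11 and 4 genes at 0. Ptprc, the pan-leukocyte gene CD45, had 0 UMIs in the mesothelial, duct and vascular gates of both negative libraries, and 7 and 2 UMIs in the sinusoidal gates. The part of these transcripts in the results below was not tested.

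The bases ahead of the class I genes, with H2-K1 and H2-D1 as a pair, are shown first, as letters of the reference genome. The sequences of the animals themselves are not known here. The sequences are RefSeq promoters of build GRCm38.p6, found for 8 of the 10 genes, with H2-K1 read from the first of its start sites. Over 100 aligned bases the pair was identical at 89 and differed at 11. The H2-K1 gene lies at chr17:33996017-34000347 on the minus strand, and the H2-D1 gene at chr17:35262730-35267499 on the plus strand. The first stretch of each is the enhancer with capitals on the match to the NF-kappa-B consensus, at chr17:34000429-34000458 (minus strand) and chr17:35262923-35262952 (plus strand).
H2-K1 enhancer: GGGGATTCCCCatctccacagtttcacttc
H2-D1 enhancer: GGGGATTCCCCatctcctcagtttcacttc
The next stretch holds, in capitals, the X2 box core TGACGC and the Y box (CCAAT, here as ATTGG on the shown strand), the kind of module through which Nlrc5 is recruited, at chr17:34000359-34000388 and chr17:35262993-35263022.
H2-K1 X2 to Y: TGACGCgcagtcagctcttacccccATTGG
H2-D1 X2 to Y: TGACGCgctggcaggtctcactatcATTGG
The whole 150 bases ahead of the H2-K1 start, chr17:34000348-34000497, show how these elements are spaced.
H2-K1 upstream: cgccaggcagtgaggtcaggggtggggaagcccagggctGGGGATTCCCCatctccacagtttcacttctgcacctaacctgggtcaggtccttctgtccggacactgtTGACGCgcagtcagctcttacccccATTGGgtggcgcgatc

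Within 250 bases of all 32851 promoters, on either strand, TGACGC was found in 6.12%, CCAAT in 33.8% and the NF-kappa-B consensus in 7.25%. The interferon-stimulated response element core (GAAA, any 2 bases, GAAA) was found in 2.98% and the gamma-activated site TTCNNNGAA in 7.02%. Of the 8 promoters, B2m held the response element core and an NF-kappa-B match, both in capitals in the stretch at chr2:122147546-122147575. Psmb8 held a gamma-activated site match, at chr17:34198088-34198117.
B2m: atGAAACTGAAAatgGGAAAGTCCCtttgt
Psmb8: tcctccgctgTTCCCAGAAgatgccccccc
Tap1 and Psmb9 are read in opposite directions from start sites 225 bases apart, and each held 1 Y box match, the same bases in both windows. Tapbp held Y box matches alone. Psmb10 held none of the 5 motifs in its window. A match describes letters and is neither a binding site nor a cause of a level. Only these exact letter patterns were searched, so a promoter without a match may still hold an element of that kind.

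Class I genes were mostly higher at injury than in recovery in the negative fraction. In duct cells all 10 genes were higher at injury with intervals of the fold above 1, by 1.29 to 2.90 times, beside 20.9% of 9133 genes. In sinusoidal cells 9 of 10 were, beside 18.6%, and in vascular cells 6 of 10, beside 7.82%, with the other 4 spanning 1. In mesothelial cells 4 were higher, beside 13.8%, 5 spanned 1, and H2-K1 was lower at injury. Intervals wholly below 1 were held by 27.2% of all genes in mesothelial, 35.8% in duct, 59.3% in sinusoidal and 11.6% in vascular cells. These intervals narrow with the UMIs in a gate, so the counts do not compare the gates. H2-D1, Tap1 and Psmb8 had intervals above 1 in all 4 gates. The share of all genes with such intervals in all 4 gates was not counted, so this describes these genes only.

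A gene was counted as past 2-fold when the log2 ratio of recovery over injury, with 10 CPM added to both levels, was at or beyond 1 in size, among genes with a mean of at least 10 CPM in the pair. Over all cells 1 of the 10 genes, H2-D1, was past 2-fold lower in recovery, beside 3.17% of 9309 genes. In duct cells 3 were (H2-D1, B2m and Tap1), beside a background of 1.87%, and in sinusoidal cells 1 (H2-D1), beside 2.80%. None was in mesothelial or vascular cells, where the background was 2.61% and 4.21%. None was past 2-fold higher in recovery, where the background was 1.58% over all cells and 2.45%, 0.799%, 0.782% and 4.62% in mesothelial, duct, sinusoidal and vascular cells. The median log2 ratio of the 10 genes was -0.521 over all cells and -0.759, -0.573 and -0.476 in duct, sinusoidal and vascular cells, beside medians of all genes of 0.117, 0.0738, 0.172 and 0.134. In mesothelial cells it was -0.215, beside 0.095, over all 10 genes including Nlrc5, which did not reach the level there. Genes of every cell also differed: Rplp0, a ribosomal protein gene, was 2.09-fold higher at injury over all cells, and Actb 0.698-fold. Within gates, Gapdh was 2.34-fold higher at injury in mesothelial cells and Eef1a1 1.99-fold in sinusoidal cells. Actb was 0.417-fold in vascular cells, and Ppia 1.03-fold in duct cells. Of 7 such genes chosen for scale, Gapdh in mesothelial and Actb in vascular cells were past 2-fold, and none in duct or sinusoidal cells.

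**Figure D1:**
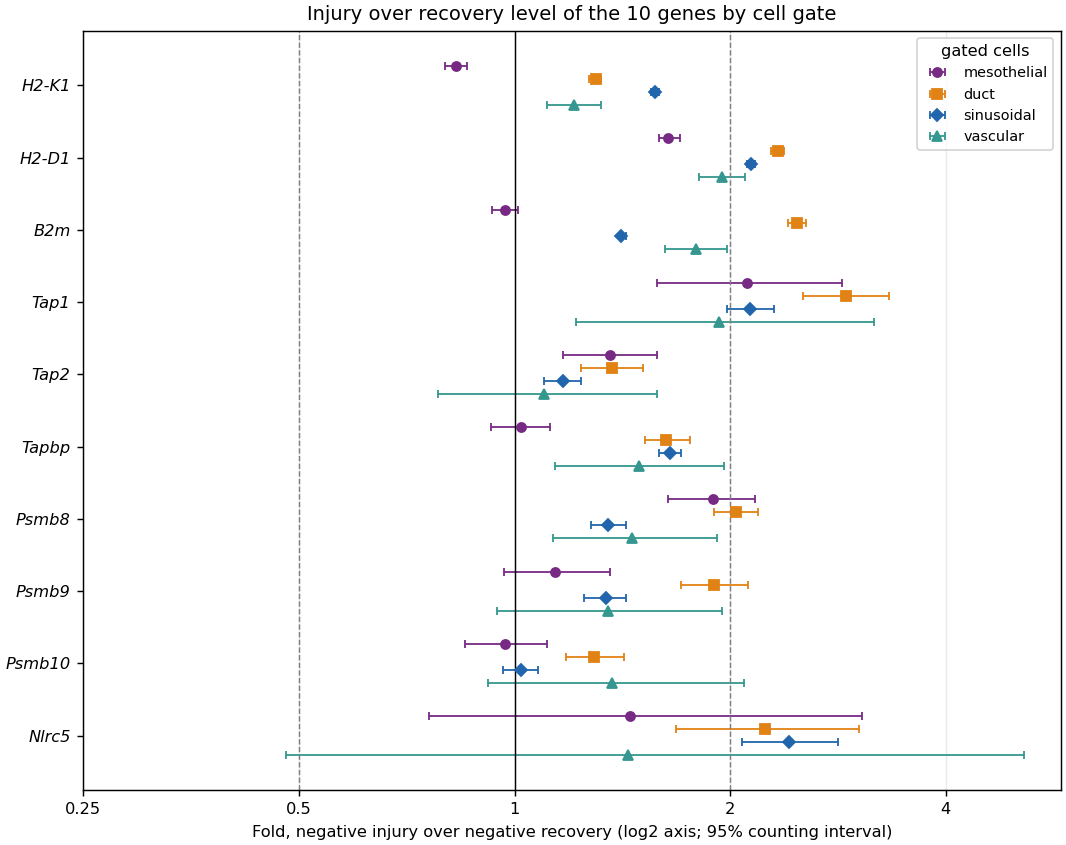
Fold of negative injury over negative recovery for the 10 genes (log2 axis, bars the 95% counting interval) in 4 gates, with dashed lines at 2-fold. The intervals of H2-D1, Tap1 and Psmb8 lie right of 1 in every gate, and mesothelial H2-K1 lies left of 1 at 0.828.

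The heavy chains present the peptide, and H2-D1 carried the difference between stages more than H2-K1. In mesothelial cells H2-D1 had 2612 CPM (interval 2531 to 2695) in negative recovery and 4282 (4230 to 4335) at injury, 1.64-fold (1.59 to 1.70). The positive recovery library had 2360 CPM in the same gate, so both recovery libraries lay under the injury one. H2-K1 went the other way in these cells: 2696 CPM (2614 to 2780) in negative recovery and 2234 (2196 to 2272) at injury, a fold of 0.828 (0.80 to 0.858). The positive recovery level, 2489.5 CPM, was also above injury.

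In duct cells H2-D1 had 1892.5 CPM in recovery and 4409 at injury, 2.33-fold (2.28 to 2.38). H2-K1 had 2411 and 3127.5 CPM, 1.30-fold (1.27 to 1.32). Both heavy chains were thus higher at injury here, by unequal amounts. In sinusoidal cells H2-D1 had 1852 and 3962 CPM, 2.14-fold (2.11 to 2.17), and H2-K1 1512 and 2375 CPM, 1.57-fold (1.55 to 1.59). In vascular cells H2-D1 had 2791 and 5440.5 CPM, 1.95-fold (1.81 to 2.10), and H2-K1 2041 and 2467 CPM, 1.21-fold (1.11 to 1.32). The fold of H2-D1 lay above that of H2-K1, with no overlap of intervals, in each of the 4 gates.

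The ratio of H2-D1 to H2-K1 UMIs compares the pair inside the same cells and does not depend on the scaling; it was added after the levels had been seen. In mesothelial cells it was 0.948 (0.937 to 0.959) in positive recovery, 0.969 (0.927 to 1.01) in negative recovery and 1.92 (1.88 to 1.96) at injury. From recovery to injury in the negative fraction it stood at 0.785 and 1.41 in duct cells, 1.23 and 1.67 in sinusoidal cells, and 1.37 and 2.20 in vascular cells. Stellate cells had 1.42 (1.37 to 1.47) in positive recovery and 2.0 (1.90 to 2.12) at injury.

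Single cells of the mesothelial, duct and sinusoidal gates showed the same shift as the sums. Among cells with at least 10 UMIs of the pair, those with more H2-D1 than H2-K1 UMIs made up 40.7% (29.9 to 52.2) of 81 mesothelial cells in negative recovery and 98.2% (95.9 to 99.4) of 280 at injury. In duct cells they were 20.9% of 392 and 87.3% of 1068, and in sinusoidal cells 65.5% of 1974 and 85.3% of 3117. In vascular cells they were 87.1% (70.2 to 96.4) of 31 and 93.8% (86.2 to 98.0) of 81, with intervals that overlap. In mesothelium and in duct cells the middle 50% of cells did not overlap between the stages. Such a separation was not counted for other pairs of genes, so this describes the pair only. The mesothelial quartiles of the H2-D1 share were 44.9 and 56.0% in recovery and 62.0 and 69.8% at injury. Those of duct cells were 37.7 and 49.6% in recovery and 54.2 and 63.3% at injury. In sinusoidal and vascular cells the middle 50% overlapped.

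**Figure D2:**
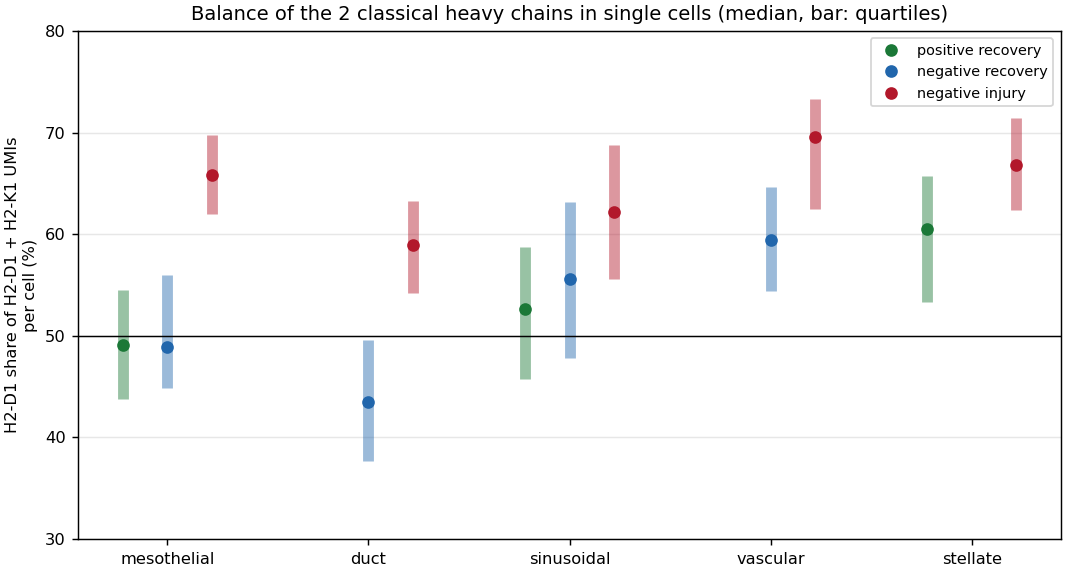
H2-D1 share of the H2-D1 and H2-K1 UMIs of a cell (percent; points are medians, bars the quartiles) by gate and library, for groups of at least 30 cells. The injury medians lie above those of recovery in every gate that has both, by most in mesothelium at 65.8% against 48.9%.

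H2-K1 and H2-D1 belong to a family of near copies, so the rest of the family was read beside them. Of the 50-base windows in the last 500 bases of the transcript, where a 3' library reads, 0.443% in H2-K1 and 9.53% in H2-D1 occur in another gene, and 0 in the other 8 genes. For H2-Q7 the share was 6.21%, for H2-Q6 35.9%, for H2-T23 38.1% and for H2-T22 59.2%, so counts of the last ones could be split or lost. H2-Q7, a Qa-2 heavy chain, was higher in recovery: 258.3 CPM and 68.47 at injury in mesothelial cells, a fold of 0.265 (interval from 0.230), and 273.8 and 119.5 CPM in duct cells. H2-T23, the Qa-1 heavy chain, had 417.6 and 124.1 CPM in mesothelial cells and 575.6 and 243.4 CPM in sinusoidal cells, and differed less in duct cells, at 218.9 and 188.8 CPM. In positive recovery H2-Q7 stood at 239.5 and H2-T23 at 307.8 CPM in mesothelial cells, nearer the other recovery library than injury.

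The 8 class I heavy chain rows were also added together (H2-K1, H2-D1, H2-Q4, H2-Q6, H2-Q7, H2-T22, H2-T23 and H2-M3). The sum joins reads split among these rows only. Windows of H2-T22 were shared with H2-T10, and those of H2-Q7 with H2-Q5 and H2-Q10, which are outside it. Windows of H2-D1, H2-Q4, H2-Q6 and H2-T23 were shared with genes such as Adsl, Olfr1238, Efr3a and Rab33b, which are outside the class I family. The sum gave 6591 CPM in mesothelial cells of negative recovery and 7137.5 at injury, a fold of 1.08 (1.06 to 1.11). The sum was 1.56-fold higher at injury in duct cells, 1.52-fold in sinusoidal cells and 1.37-fold in vascular cells. This sum of 8 rows therefore differed less between the stages than H2-D1 alone, and by little in mesothelium.

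Another transcript of the same region was nearly absent in recovery, and was named after its values were seen. BC023719, annotated as antisense at chr17:36111426-36117121 among the H2-T genes, had 0 UMIs in mesothelial, duct and vascular cells of negative recovery, 1 UMI in all 2380 positive recovery cells, and 129, 406 and 16 UMIs at injury (21.75, 23.28 and 25.69 CPM). In sinusoidal cells it had 2 UMIs in recovery and 304 at injury. A search of all genes for at least 10 CPM in 1 negative library and at most 1 CPM in the other, in each of 4 gates, found BC023719 and Gm10260 alone, both present at injury; Gm10260 lies outside the region, at chr13:97760072-97760632. Class I genes differ in sequence between mouse haplotypes, reads were counted on 1 reference, and the sources used here do not give the haplotypes. A haplotype that differed between the animals of injury and recovery and a difference between the stages cannot be told apart for H2-K1, H2-D1 and their family, nor for Tapbp, Tap1, Tap2, Psmb8 and Psmb9, which lie on the same stretch of chromosome 17. B2m on chromosome 2, and Psmb10 and Nlrc5 on chromosome 8, lie elsewhere.

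**Figure D3:**
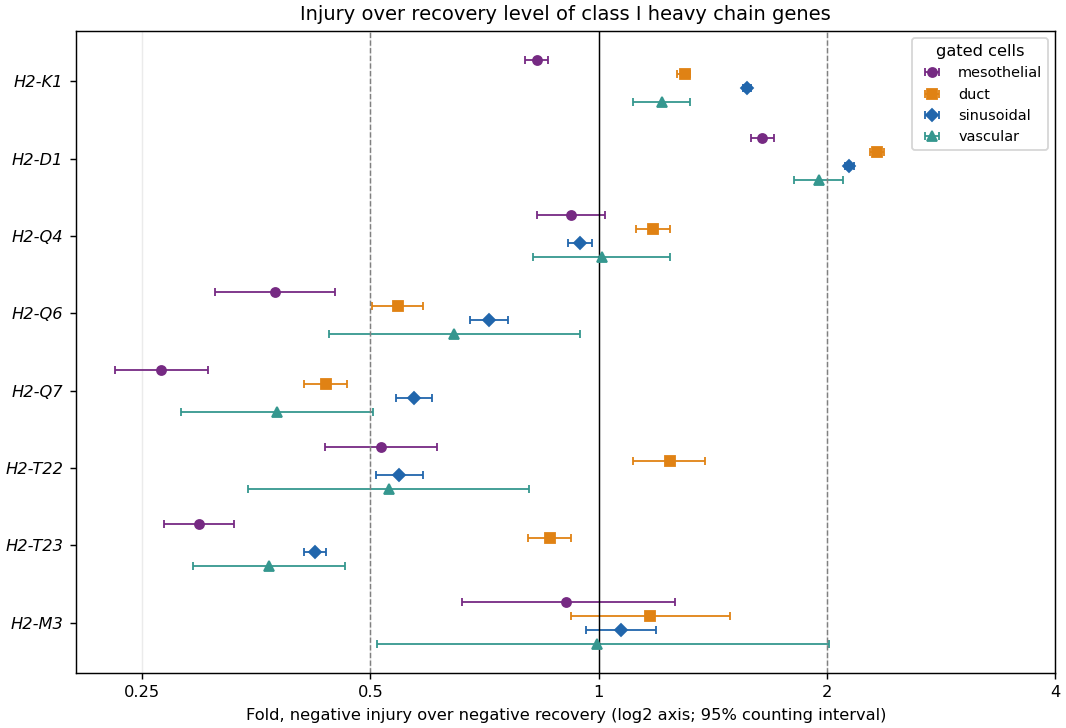
Fold of negative injury over negative recovery (log2 axis, bars the 95% counting interval) for classical and other class I heavy chain genes in 4 gates. H2-D1 lies right of 1 in all 4 gates, and H2-Q6 and H2-Q7 left of 1, with mesothelial H2-Q7 lowest at 0.265.

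B2m, the light chain of these class I molecules, at chr2:122147686-122153083, differed most in duct cells. They had 857.2 CPM (833.8 to 881.2) in negative recovery and 2124 (2102 to 2145) at injury, 2.48-fold (2.41 to 2.55). The duct level in recovery was the lowest of B2m in any group with at least 30 cells, under the 1535 CPM of vascular, 2105 of mesothelial and 2367 of sinusoidal cells. At injury the duct level reached that of mesothelium, 2039 CPM. The middle 50% of duct cells lay between 500.6 and 1093 CPM in recovery and between 1430 and 2645 at injury, so they did not overlap. The share of all genes with such a separation was not counted, so this describes B2m only. Hepatocyte RNA in this gate was higher at injury as well, with Alb at 4777 and 6180 CPM; its part was not tested.

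In the other gates B2m was closer between stages. Sinusoidal cells had 2367 and 3347 CPM, 1.41-fold (1.40 to 1.43), and vascular cells 1535 and 2745 CPM, 1.79-fold (1.62 to 1.98). Mesothelial cells had 2105 and 2039 CPM, 0.969-fold (0.931 to 1.01), and the sign of this small ratio turned when TMM factors were used (log2 -0.14 against 0.05). Mesothelium in positive recovery had 2008 CPM, so its 3 libraries lay within a narrow range.

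The transporter subunits pump peptides as a pair, but their transcripts parted: Tap1 was 1.93 to 2.90-fold higher at injury over the gates and Tap2 1.10 to 1.37-fold. Tap1, at chr17:34187553-34197225, had 40.43 and 117.1 CPM in duct cells, 2.90-fold (2.53 to 3.33). It had 54.31 and 115.6 CPM in sinusoidal cells, 2.13-fold (1.98 to 2.30). Mesothelial cells had 34.52 and 72.85 CPM, 2.11-fold (1.58 to 2.87) from 52 and 432 UMIs. Vascular cells had 69.77 and 134.8 CPM, 1.93-fold (1.22 to 3.18).

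Tap2 had 90.19 and 123.4 CPM in duct cells (1.37-fold, 1.24 to 1.51), 105.8 and 123.3 in sinusoidal cells (1.17-fold, 1.10 to 1.24), and 140.7 and 191.4 in mesothelial cells (1.36-fold, 1.17 to 1.58). In vascular cells its interval spanned 1. The ratio of Tap1 to Tap2 UMIs was 0.448 (0.383 to 0.523) in recovery and 0.948 (0.892 to 1.01) at injury in duct cells. It was 0.513 and 0.938 in sinusoidal cells and 0.245 and 0.381 in mesothelial cells, so mesothelium kept the lower ratio in both stages.

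More duct and sinusoidal cells carried Tap1 at injury. With every cell thinned to 1000 UMIs, a Tap1 UMI was found in 3.18% (1.70 to 5.37) of 409 duct cells in recovery and 9.58% (7.91 to 11.5) of 1106 at injury, leaving out 12 and 14 shallower cells. In sinusoidal cells it was found in 5.75% of 2105 and 11.3% of 3242. Without thinning the shares were 34.2 and 70.2% in duct and 33.9 and 47.7% in sinusoidal cells. In the 32 and 82 vascular cells the thinned shares were 15.6% (5.28 to 32.8) and 12.2% (6.01 to 21.3), with intervals that overlap.

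Tapbp, at chr17:33915899-33929292, bridges the transporter and the empty heavy chain. It was higher at injury in duct cells (153.9 and 251.5 CPM, 1.63-fold, 1.52 to 1.76), sinusoidal cells (229.4 and 377.9 CPM, 1.65-fold, 1.59 to 1.71) and vascular cells (220.9 and 329.1 CPM, 1.49-fold, 1.14 to 1.96). Mesothelial cells held it at 355.4 CPM in positive recovery, 379.1 in negative recovery and 385.5 at injury, with a fold of 1.02 (0.927 to 1.12). Of the 6 other chaperones of loading on the list fixed for this comparison (Calr, Canx, Pdia3, Tapbpl, Erap1 and Hspa5), none was past 2-fold in any of the 4 gates. Over these gates the background was 1.87% to 4.21% of all genes lower and 0.782% to 4.62% higher in recovery. With shares this small, the count does not set the 6 apart from other genes.

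Psmb8, Psmb9 and Psmb10 replace Psmb5, Psmb6 and Psmb7 in the immunoproteasome, which favours peptides that fit class I. Psmb8 was higher at injury in each gate: 149.6 and 305.4 CPM in duct cells (2.04-fold, 1.90 to 2.19), 154.7 and 291.7 in mesothelial (1.89-fold, 1.64 to 2.17), 118.4 and 160 in sinusoidal (1.35-fold, 1.28 to 1.43) and 232.6 and 340.3 in vascular cells (1.46-fold, 1.13 to 1.92). Psmb9 had 71.34 and 135.7 CPM in duct cells, 1.90-fold (1.71 to 2.12), and 82.05 and 109.7 in sinusoidal cells, 1.34-fold (1.25 to 1.43). Its intervals spanned 1 in mesothelial and vascular cells. Psmb10 differed least, with an interval above 1 in duct cells alone (93.76 and 121.1 CPM, 1.29-fold, 1.18 to 1.42); its mesothelial fold was 0.971 and turned sign under TMM factors (log2 -0.13 against 0.04).

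The constitutive partners were lower at injury in duct and sinusoidal cells, and in mesothelial cells their intervals spanned 1, with Psmb5 at 154.7 and 162.7 CPM. In vascular cells Psmb5 and Psmb6 were past 2-fold higher in recovery, beside 4.62% of all genes. In sinusoidal cells Psmb5 had 121.1 and 71.75 CPM and Psmb6 151.3 and 97.37 CPM, both lower at injury. The ratio of Psmb8 to Psmb5 UMIs was 0.978 (0.921 to 1.04) in sinusoidal recovery and 2.23 (2.10 to 2.37) at injury. It was 0.760 and 1.75 in duct cells, 1.0 and 1.79 in mesothelial cells, and 1.36 (0.957 to 1.93) and 4.24 (3.1 to 5.89) in vascular cells. The vascular ratio moved through both genes, as Psmb8 itself was 1.46-fold higher at injury and Psmb5 was lower.

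Psmb9 over Psmb6 was 0.263 and 0.603 in duct cells and 0.542 and 1.13 in sinusoidal cells. Psmb10 over Psmb7 was 0.984 and 1.5 in duct cells and 1.44 and 1.99 in sinusoidal cells, and in mesothelium 2.57 (2.06 to 3.23) and 2.64 (2.36 to 2.96), already high in recovery. In sinusoidal cells Psmb10 itself was at 1.02-fold (0.964 to 1.08), so that ratio moved with Psmb7. For scale, the 128 ungated cells of positive recovery with a Ptprc UMI, where leukocytes are found, had Psmb8 over Psmb5 at 3.20 (2.71 to 3.80) and Psmb9 over Psmb6 at 1.40 (1.15 to 1.72). Vascular cells at injury overlapped both leukocyte ratios, though Psmb8 itself stood at 340.3 CPM in them and at 528 CPM in the ungated cells.

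**Figure D4:**
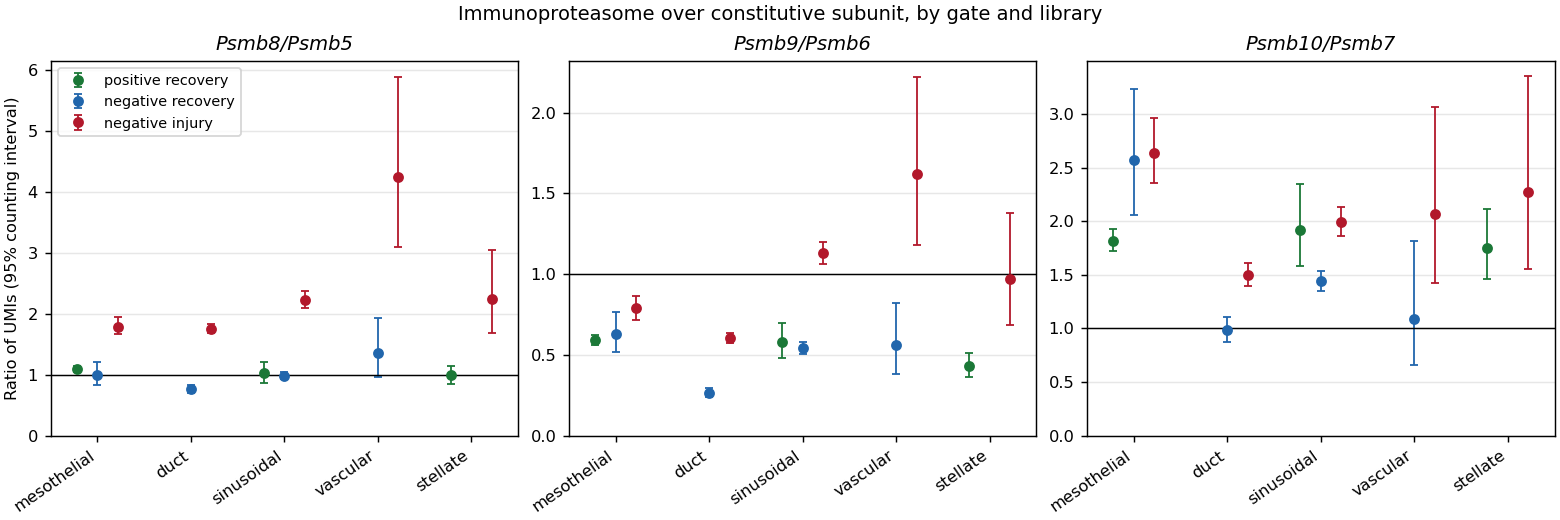
Ratio of UMIs of each immunoproteasome subunit to its constitutive counterpart by gate and library (bars the 95% counting interval), for groups of at least 30 cells. Psmb8 over Psmb5 lies between 0.760 and 1.36 in the recovery groups and between 1.75 and 4.24 in the injury groups.

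Nlrc5, at chr8:94434356-94527272, was scarce, as its level rests on few UMIs. Sinusoidal cells had 12.72 CPM (227 UMIs) in recovery and 30.84 (638 UMIs) at injury, 2.42-fold (2.08 to 2.83). Duct cells had 9.342 CPM (55 UMIs) and 20.93 (365 UMIs), 2.24-fold (1.68 to 3.03). Mesothelial cells had 7.303 and 10.62 CPM and vascular cells 14.54 and 20.87 CPM, with intervals spanning 1, so a difference was not detectable at this depth. Positive recovery mesothelium had 4.589 CPM, the lowest Nlrc5 level of any group with at least 30 cells.

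Factors that act above these genes were taken from the list of 46 partners. Of its 11 transcription factors, 10 reached the level in each gate, and they did not all go the same way. In sinusoidal cells 5 were lower and 5 higher in recovery, by any amount. In mesothelial and in duct cells 7 were lower and 3 higher, and in vascular cells 6 and 4. Irf1, a direct activator of class I and Tap1, was past 2-fold lower in recovery in all 4 gates, beside 1.87% to 4.21% of all genes. It had 96.14 CPM in recovery and 210.6 at injury in duct cells (2.19-fold), 268.8 and 656 in sinusoidal cells (2.44-fold) and 282 and 866.9 in vascular cells (3.07-fold). In mesothelial cells Irf1 had 63.07 and 183.1 CPM (2.90-fold). The relation of Irf1 to the class I genes was not tested. Stat2, a part of the complex that carries type I interferon signals to DNA, had 27.18 and 72.3 CPM in duct cells (2.66-fold, 2.26 to 3.16) and 48.03 and 85.19 in sinusoidal cells (1.77-fold, 1.63 to 1.93). Irf9, its DNA-binding partner, had 65.22 and 119.7 CPM in duct cells (1.83-fold, 1.64 to 2.05) and was not past 2-fold in any of the 4 gates. Nfkb1, an NF-kappa-B subunit, was past 2-fold lower in recovery in mesothelial cells (68.38 and 152.5 CPM) and had 101.1 and 108.8 CPM in duct cells.

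Genes listed as inhibitors, of these signals or, for Cd274, of T cells, were higher at injury in sinusoidal cells. Usp18, which restrains the type I interferon receptor, had 27.01 and 126.9 CPM in duct cells (4.70-fold) and 12.55 and 89.44 in sinusoidal cells (7.12-fold). Socs1, an inhibitor of Janus kinases, had 78.24 and 262.1 CPM in sinusoidal cells, 49.42 and 256.9 in vascular cells, and 14.61 and 13.83 in mesothelial cells. Cd274, the T cell checkpoint ligand PD-L1, had 15.02 and 117.6 CPM in sinusoidal cells, 7.83-fold. All 4 inhibitors (with Socs3) were past 2-fold lower in recovery in sinusoidal cells, beside 2.80% of all genes, and 3 of 4 in vascular cells, beside 4.21%. In duct cells 1 of the 3 that reached the level was, beside 1.87%, and in mesothelial cells 1 of 4, beside 2.61%, in both Usp18.

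The interferon genes on the list, Ifng and Ifnb1, were not seen in the negative libraries, and the list held no other interferon gene. Ifng and Ifnb1 had 0 UMIs in all cells of negative recovery and of negative injury, where 0 UMIs allow up to 0.1356 and 0.07587 CPM. In positive recovery Ifng had 69 UMIs, 65 of them in the 128 ungated cells with Ptprc. Such cells numbered 2 in negative recovery and 1 in negative injury, so these counts of 0 describe the captured cells and not the liver. Of the 9 cytokine and receptor genes, 7 reached the level in vascular cells, where Jak2 was past 2-fold lower in recovery (8.722 and 49.77 CPM, from 3 and 31 UMIs, fold interval 1.78 to 29.2) and Ifngr1 past 2-fold higher (116.3 and 52.98 CPM), beside 4.21% and 4.62% of all genes. None was past 2-fold in duct, sinusoidal or mesothelial cells, beside 1.87% to 2.80% of all genes lower and 0.782% to 2.45% higher in recovery.

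The order of the gates differed between genes and stages. For H2-K1 in negative recovery it ran from mesothelial (2696 CPM) through duct and vascular to sinusoidal cells (1512), each step with intervals apart. At injury it ran from stellate (3919) through duct, vascular and sinusoidal to mesothelial cells (2234), and only vascular and sinusoidal intervals overlapped: mesothelium was first in the one order and last in the other. For H2-D1 at injury the order was stellate, vascular, duct, mesothelial and sinusoidal, with all steps apart. B2m was highest in sinusoidal cells in negative recovery and at injury, where its interval overlapped that of stellate cells.

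Tapbp was highest in mesothelium in both recovery libraries, apart from the next gate. Tap1 at injury did not separate vascular, stellate, duct and sinusoidal cells, whose neighbouring intervals overlapped, and mesothelium lay below them. Psmb10 in negative recovery was highest in mesothelium (191.2 CPM), apart from sinusoidal cells (126.5), while sinusoidal, vascular and duct neighbours overlapped.

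Stellate cells, the main source of scar-forming cells in this organ, were gated in 177 cells of positive recovery and 41 of negative injury, so fraction and stage differ together and the values stand side by side. H2-D1 had 3467 and 7855 CPM, and H2-K1 2441 and 3919 CPM. B2m had 3126 and 3305 CPM, Tapbp 183.2 and 408.7, and Tap1 47.25 and 118.3. The injury group held the highest H2-K1, H2-D1, Tapbp, Psmb10 and Nlrc5 of any group with at least 30 cells. Its Tapbp, Psmb10 and Nlrc5 intervals overlapped those of the next gate at injury, and Nlrc5 rested on 17 UMIs. The stellate, vascular and sinusoidal lists summed to 12615, 1625 and 514.6 CPM in these cells, and to 10361, 636.9 and 1286 CPM in those of positive recovery. The leukocyte list summed to 31.12 CPM at injury with 7 of 13 genes at 0, Ptprc among them. The part of RNA of other cells was not tested.

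**Figure D5:**
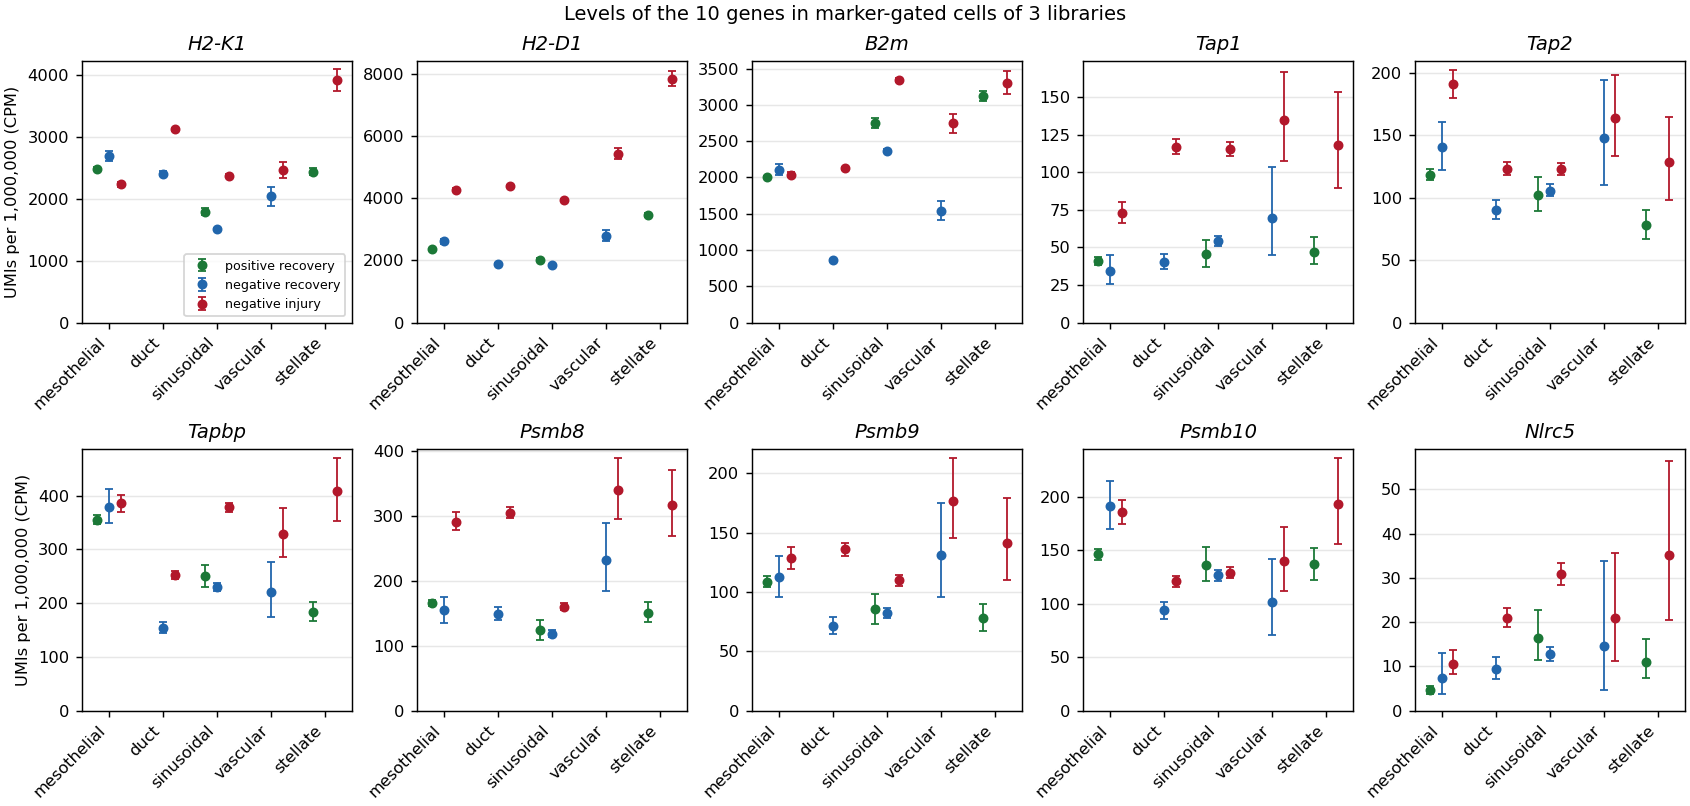
Level of each of the 10 genes (CPM, points with 95% counting interval) by gate and library, for groups of at least 30 cells. Both recovery libraries lie close together in the mesothelial and sinusoidal gates, and the injury library lies above them for most genes, apart from H2-K1, B2m and Psmb10 in mesothelium and Psmb10 in sinusoidal cells.

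Between the reporter fractions in recovery the class I genes were close. None of the 10 was past 2-fold over all cells, in mesothelial or in sinusoidal cells. Over all cells the background was 10.5% of genes lower and 8.44% higher in the positive library, in mesothelial cells 0.224% and 1.24%, and in sinusoidal cells 0.116% and 3.23%. In mesothelial cells the median log2 ratio of positive over negative was -0.103, beside -0.00734 for all genes. H2-K1 had 2489.5 CPM in the positive and 2696 in the negative library, 0.923-fold (0.894 to 0.953), and H2-D1 2360 and 2612 CPM, 0.903-fold (0.875 to 0.933). Psmb10, at 146.2 and 191.2 CPM, was 0.765-fold (0.678 to 0.866). Over all cells, where 1324 of 2380 cells in the positive and 81 of 2949 in the negative library were mesothelial, Tapbp had 316.5 and 219.4 CPM, 1.44-fold (1.40 to 1.49), and Nlrc5 6.395 and 11.43 CPM, 0.559-fold (0.466 to 0.670).

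In sinusoidal cells H2-K1 had 1791 and 1512 CPM, 1.18-fold (1.14 to 1.22), and B2m 2746 and 2367 CPM, 1.16-fold (1.13 to 1.19). Stellate markers summed to 4026 CPM in the sinusoidal gate of the positive library and 206.7 in that of the negative one. With cells that passed several gates left out, the log2 ratio of H2-K1 was 0.02 in place of 0.24 and that of H2-D1 -0.16 in place of 0.13. The sign of the H2-D1 ratio thus depended on which cells were counted.

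Osr1, a transcription factor of mesenchymal and mesothelial cells, divides the mesothelial cells of positive recovery into 379 with and 945 without a UMI, of median depth 16534 and 14150. H2-K1 had 2995 and 2224 CPM, 1.35-fold (1.32 to 1.37) higher with Osr1, H2-D1 2715 and 2173 CPM, 1.25-fold (1.23 to 1.27), and Psmb8 231.6 and 131.4 CPM, 1.76-fold (1.65 to 1.88). Tapbp (0.823-fold) and Psmb10 (0.787-fold) were lower with Osr1. Irf7, an interferon-induced factor, was 2.37-fold higher and Ptprc was at 8.038 and 3.039 CPM; their part was not tested.

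As a description over the 12 groups of gate and library with at least 30 cells, H2-D1 followed the mean of the other 9 genes most closely (Pearson r = 0.92), then Psmb9 (0.83) and Tap1 (0.79), and B2m and Psmb10 least (0.48 each). The mean centred log2 level of the 10 genes was lowest in duct cells of negative recovery (-0.58) and highest in stellate cells at injury (0.62), and it was below 0 in every recovery group and above 0 in every injury group. Of 9373 other genes, those most like this mean were Xaf1 (r = 0.948), Ifi47 (0.944), Ddx60 (0.944), Ifit3 (0.942), Ifitm3 (0.933), Irgm2 (0.931), Ifit3b (0.929), Gbp6 (0.918), Irf7 (0.912) and Trim12c (0.910). Ifit3, Ifitm3 and Irf7 are well-known interferon-induced genes. Groups of a library share its depth and free RNA, so these points are not independent. Irf7 ranged from 15.9 to 1104 CPM over the groups, a wider range than that of any of the 10 genes, where Nlrc5 had the widest (7.69-fold) and Psmb10 the narrowest (2.06-fold).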

How the data were processed

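Single-cell libraries of 3 of the 4 groups were analysed; the sorted fractions were taken as labelled. Per the labels' protocols, liver cells were freed with 14 mg Pronase and 3.7 U Collagenase per mouse, purified on Nycodenz and made into 3' v2 single cell libraries with 10x Genomics reagents. The deposited values are raw counts of UMIs per gene and barcode, written by software version 3.1.0 per the file headers. The builds mm10 and GRCh38, fastp and featureCounts 1.6.2 are named in the submitters' processing notes; the sources used here do not give the aligner or the way cells were called.

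Cells with at least 500 UMIs, 300 genes and at most 20% mitochondrial UMIs were kept, and doublets called by Scrublet (scanpy 1.11.5) removed: 108, 6 and 5 in positive recovery, negative recovery and negative injury. Rates of 0.203% and 0.0918% show that the caller failed in both negative libraries, so doublets remain. Cells passing several gates went to the gate with more marker UMIs, and 28.2%, 9.02% and 11.6% of cells passed none. Counts were summed per group and divided by the group's total; UMIs used numbered 31432462, 27200555 and 48622040. Comparisons needed 30 cells in both groups. Shares of cells were taken after thinning to 1000 UMIs. The calculation was checked on simulated counts. Coordinates are of GENCODE M21 (GRCm38), where 30934 of 31053 gene IDs were found. Alternatives included TMM factors (edgeR 4.0.16), 1 CPM added, other gates and other cell filters.

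The 10 genes and all lists were chosen with earlier results of these data known. Named were all 10 genes, up to 6 of the 46 partner genes with the largest log2 ratio in a comparison, the constitutive proteasome subunits, the 10 genes most like the mean, and Ptprc, Osr1, Irf7 and defining markers; other genes named are illustrations chosen after their values were seen. 1 partner gene is not reported here.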

Additional observations from a re-analysis of the deposited data

Results flagged for a closer look

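Some heavy chain genes differed between recovery and injury in opposite directions in different gates, with counting intervals on either side of no difference. The values are log2 ratios of negative recovery over negative injury with 10 CPM added, and the differences between gates were not tested, since each group is 1 library. H2-K1 stood at 0.27 in mesothelial cells and at -0.37 in duct, -0.65 in sinusoidal and -0.27 in vascular cells. H2-T22, a nonclassical heavy chain seen by some gamma-delta T cells, stood at 0.86 in mesothelial, 0.78 in sinusoidal and 0.83 in vascular cells and at -0.27 in duct cells, and 59.2% of its 3' windows occur in H2-T10. H2-Q4 stood at 0.08 in sinusoidal and -0.23 in duct cells, and 33.7% of its 3' windows occur in another gene. TMM factors shift sinusoidal ratios by -0.19, more than the size of the H2-Q4 ratio there, so its opposite direction does not hold under that scaling.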

How the results depend on the processing

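No paired analysis was possible because each group has 1 library. The number of the 10 genes past 2-fold between negative recovery and negative injury, all lower in recovery, was 1 over all cells and became 2 with TMM factors, with 1 CPM added and with the mean of per-cell CPM. In mesothelial cells 0 became 2 with TMM and 1 with 1 CPM added. In duct cells 3 became 5 with 1 CPM added, and in sinusoidal cells 1 became 2 with TMM and 3 with 1 CPM added. In vascular cells 0 became 3 with TMM and 1 with cells counted in each gate they pass. The counts between the recovery fractions were 0 under each alternative that was run. TMM moved the log2 ratios of all genes by -0.13 to -0.21 between the negative stages, and in mesothelium left H2-K1 at 0.09 in place of 0.27. Of 80 log2 ratios of the 10 genes, 10 changed sign under some alternative, and 0 of the 43 of at least 0.3 in size did. Demanding 2 UMIs of each marker, or leaving out cells that pass several gates, left under 30 vascular cells in recovery and gave no value there. Joining the 8 heavy chain rows, an alternative added after the data were seen, set H2-K1 and H2-D1 at a common log2 ratio of -0.57 over all cells, and of -0.11, -0.64, -0.60 and -0.45 in mesothelial, duct, sinusoidal and vascular cells; with BC023719 joined as well it was -0.58, -0.12, -0.65, -0.60 and -0.45. Depth limits Nlrc5, with 5 to 638 UMIs in the gates of the negative libraries that were compared, and the vascular gate, with 32 and 82 cells.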

Other observations

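Psme2 encodes a subunit of the interferon-inducible proteasome cap, and Psme3 encodes a separate cap found mostly in the nucleus. The ratio of Psme2 to Psme3 UMIs was 4.69 (3.56 to 6.28) in mesothelial cells of negative recovery and 7.83 (6.80 to 9.06) at injury, and 4.55 (3.91 to 5.31) and 5.84 (5.39 to 6.34) in duct cells. In sinusoidal cells it was 3.02 (2.76 to 3.31) and 2.96 (2.73 to 3.22), with intervals that overlap, while Psmb8 over Psmb5 stood at 0.978 and 2.23 in the same cells. The difference between the gates was not tested.

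The 128 ungated cells of positive recovery with a Ptprc UMI had Psmb8 at 528 CPM, above the 118.4 to 340.3 CPM of the gated groups with at least 30 cells. Their H2-K1 and H2-D1 levels, 1933.5 and 1996 CPM, lay within the range of the gated groups, and their ratio of Tap1 to Tap2 UMIs was 1.06 (0.816 to 1.38), above the 0.345 to 0.605 of the positive recovery gates with at least 30 cells.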
